A study of Mus musculus with 9 samples.

Results

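Expression of 8 genes that mark the surface epithelium of the ovary and simple epithelia, the keratins Krt7, Krt8, Krt18, Krt19 and Krt14, the uroplakins Upk3b and Upk1b and the mesothelin gene Msln, was followed in embryonic ovaries grafted into male hosts. The genes were chosen by name out of 18194 genes with a probe set of their own. They were read from the probe sets annotated to a single one of these genes, 16 in all. Where a gene had several, the one with the highest average over the 9 arrays was taken, and the others served as a check. Grafts were ovaries of XX embryos at 13 dpc, depleted of germ cells by busulfan given to the mothers, that had been placed beneath the kidney capsule of male nude mice (XY-host), and they were taken 4, 7, 10, 15 or 20 days later. They were compared with ovaries of 13 dpc embryos of the same treatment before transplantation (day 0). Grafts were thus older than day 0 ovaries when taken. None of the 9 arrays held ungrafted ovaries of the age of the grafts or grafts from female hosts. Effects of age, transplantation and male host therefore cannot be told apart. The labels name the strain as ICR. RNA pooled from approximately 10 grafts went onto each array. Days 0, 10 and 20 had 2 arrays apiece, while days 4, 7 and 15 had only 1. The values are log2 intensities of Affymetrix probe sets, short-probe sets near the 3' end of a transcript, so that a difference of 1 is a 2-fold change.

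Keratins are the intermediate filament proteins of epithelial cells. A filament forms only from pairs of a type II keratin (here Krt7 and Krt8) with a type I keratin (here Krt18, Krt19 and Krt14), and the pair of Krt8 and Krt18 is the first to be made in simple epithelia of the embryo. The ovary is covered by a single layer of such an epithelium, which is continuous with the mesothelium of the body cavity. Mesothelium is known for Msln, a glycoprotein anchored to the cell membrane, and for Upk3b. Uroplakins otherwise form the plaques of the bladder lining. Krt14 is the type I keratin of the basal layer of stratified epithelia such as the skin.

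Of these genes, Msln rose on every graft day, 4.66-fold on day 10 and 5.29-fold on day 20, and 5 genes, namely Krt7, Krt8, Krt18, Krt14 and Upk3b, lay below both arrays of day 0 in each of the 7 graft arrays. Such a position was common, as 19.6% of all 45101 probe sets lay below both arrays of day 0 in every graft and 10.3% above both, and 3 of the 5 genes (Krt18, Krt14 and Upk3b) did not pass the test on any day. Of the others, Krt7 passed the test on days 15 and 20 and Krt8 on day 10. Krt19 lay above both arrays of day 0 in 6 of 7 graft arrays, but did not pass the test on any day. Upk1b also did not pass it. Here and below, shares count every probe set of the array, whereas each of the 8 genes is read from its highest. The plot of the 8 genes by array shows their courses.

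**Figure D1:**
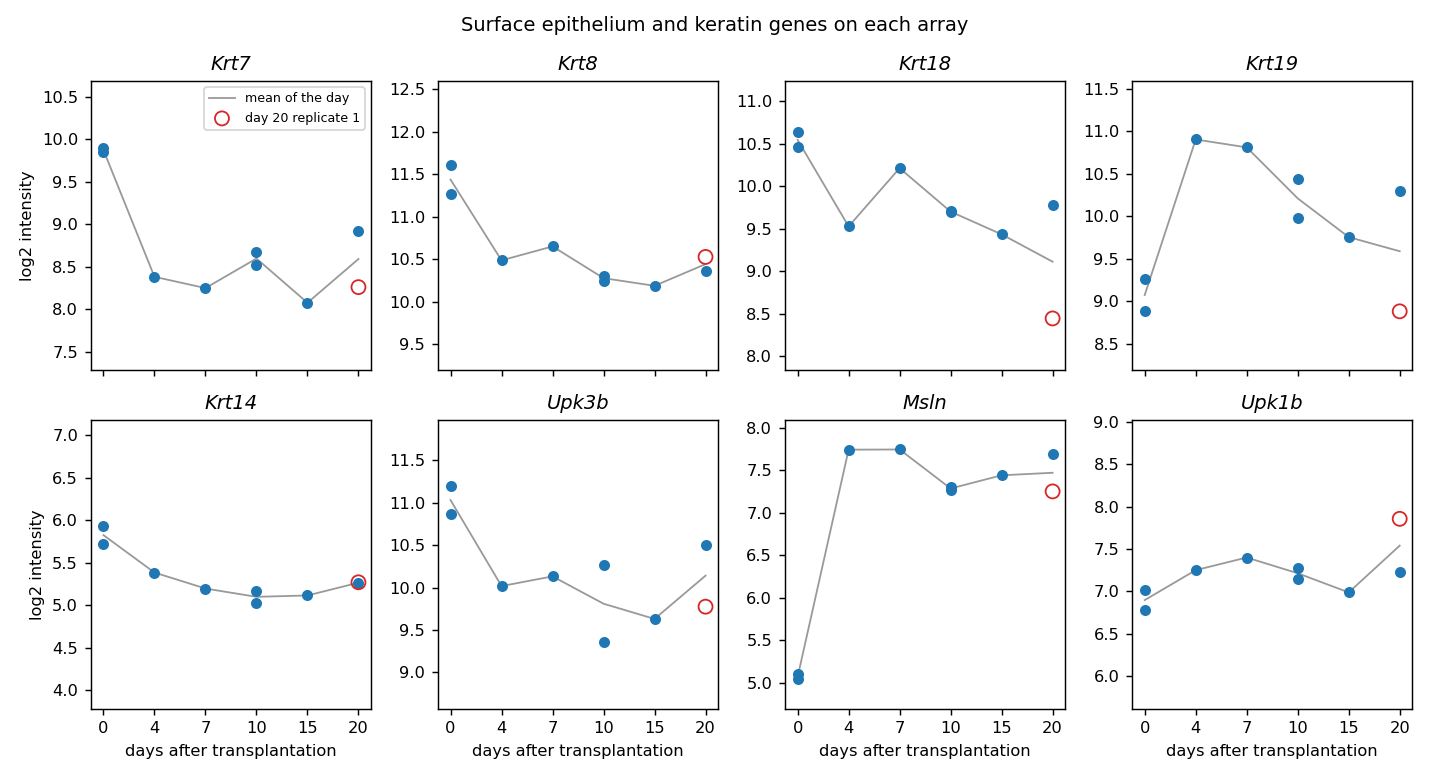
Log2 intensity (y axis) of each of the 8 genes against the days after transplantation (x axis, evenly spaced), with a point for each of the 9 arrays, a line through the mean of each day and an open red circle for day 20 replicate 1. Msln lies between 7.25 and 7.75 in the grafts and at 5.04 and 5.10 on day 0, and Krt18 and Krt19 are lowest among the grafts on day 20 replicate 1.

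Several facts of the arrays touch these values. On day 20 replicate 1, all 11 genes measured from a list of kidney proximal tubule genes were higher than on day 20 replicate 2, and their summed intensity was 52363 there, against 829 to 2412 on the other 8 arrays. Of 11 genes of the loop, distal tubule and collecting duct, 10 were higher on that array. Of 6 genes of gonadal somatic cells, none was higher, and their sum was 11532 on day 20 replicate 1 and 23825 on replicate 2. The log2 values of the 8 genes are therefore given for each array of day 20. Day 20 changes of most genes of other lists are means of both arrays and so include replicate 1. The part of kidney transcripts in each value was not tested. Of that gonadal list, Foxl2 (11.44 to 12.98) and Amhr2 (11.88 to 13.41) were measured well above the median value of an array (6.49 to 6.63) on all 9 arrays. Others of the list, Nr5a1 and Gata4, were called lower on day 20. The list median against day 0 was -0.57 on day 10 and -1.07 on day 20, and that of all probe sets -0.09 and -0.11. On day 20 replicate 1 the list median was -1.64, and on day 20 replicate 2 it was -0.50, near that of day 10. Fewer cells of a type and less RNA per cell cannot be told apart in these pools.

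For 5 of the 8 genes the sequence before the start of transcription was at hand (RefSeq, build GRCm38.p6), and these are the 5 genes that lay below day 0 in all grafts. The 250 bases before each start are shown for all of the 8 genes whose sequence was at hand, and were not chosen by expression. Capitals mark the GC box GGGCGG and the CACCC box CACCC, the letters that factors of the Sp and Klf families are known to bind, on either strand (read as CCGCCC and GGGTG on the other).
Krt7 (chr15:101412153-101412402, plus strand): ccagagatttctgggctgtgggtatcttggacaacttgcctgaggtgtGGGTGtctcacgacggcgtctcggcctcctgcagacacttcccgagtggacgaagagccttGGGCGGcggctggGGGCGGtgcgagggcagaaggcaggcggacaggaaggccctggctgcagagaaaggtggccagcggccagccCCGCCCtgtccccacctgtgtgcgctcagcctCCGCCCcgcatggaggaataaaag
Krt8 (chr15:102004343-102004592, minus strand): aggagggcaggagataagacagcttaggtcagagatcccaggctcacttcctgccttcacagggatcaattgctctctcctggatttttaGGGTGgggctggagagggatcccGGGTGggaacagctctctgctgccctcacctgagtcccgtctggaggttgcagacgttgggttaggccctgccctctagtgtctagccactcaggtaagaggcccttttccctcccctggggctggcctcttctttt
Krt18 (chr15:102027966-102028215, plus strand): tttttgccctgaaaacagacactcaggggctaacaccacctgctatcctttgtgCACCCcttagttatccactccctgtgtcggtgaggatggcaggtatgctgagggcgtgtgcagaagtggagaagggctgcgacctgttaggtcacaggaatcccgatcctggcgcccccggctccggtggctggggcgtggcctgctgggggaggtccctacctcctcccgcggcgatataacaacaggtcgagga
Krt14 (chr11:100206031-100206280, minus strand): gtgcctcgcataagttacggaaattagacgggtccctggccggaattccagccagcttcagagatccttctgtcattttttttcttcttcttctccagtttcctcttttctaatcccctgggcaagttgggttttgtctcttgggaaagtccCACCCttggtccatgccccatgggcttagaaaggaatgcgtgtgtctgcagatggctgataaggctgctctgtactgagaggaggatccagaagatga
Upk3b (chr5:136038246-136038495, plus strand): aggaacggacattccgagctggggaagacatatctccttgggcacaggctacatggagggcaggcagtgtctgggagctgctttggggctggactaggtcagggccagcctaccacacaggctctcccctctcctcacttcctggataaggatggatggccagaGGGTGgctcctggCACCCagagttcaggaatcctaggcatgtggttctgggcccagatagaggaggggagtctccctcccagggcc
The GC box was found 4 times before Krt7, the nearest of them 18 bases before the start, and in none of the other 4 sequences, while 32.7% of 32851 promoters of that length held it. The CACCC box was found in all 5, with 2 matches each before Krt8 and Upk3b and 1 match each before Krt7, Krt18 and Krt14, but 52% of all promoters held it too. The letters GGAATG, which TEAD factors bind, stood before Krt14 and Upk3b (12.6% of all promoters), and TGANTCA, the AP-1 motif, before none of the 5 (6.75% of all promoters), both searched on either strand. Matches to the GC box and the CACCC box did not overlap. The genes for Krt8 and Krt18 lie next to each other on chromosome 15.

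Among the type II keratins, Krt7, the partner of Krt19 or Krt18 in ducts and mesothelium, had log2 values of 9.90 and 9.85 on day 0, 8.38 on day 4, 8.25 on day 7, 8.52 and 8.67 on day 10, 8.08 on day 15, and 8.26 on day 20 replicate 1 and 8.92 on day 20 replicate 2. All graft arrays were lower than both arrays of day 0, and the groups did not overlap. Krt7 was 3.48-fold lower on day 15 (log2 fold change -1.80, SE 0.30, adjusted p = 0.0461) and 2.43-fold lower on day 20 (-1.28, SE 0.25, adjusted p = 0.0341). On day 10 it differed by -1.28 as well (SE 0.25), with an adjusted p of 0.0509, just above the threshold, and on days 4 and 7 by -1.49 and -1.63 (SE 0.30 each, adjusted p = 0.128 and 0.0775). The call on day 20 rested on the arrays of several days. With day 0 replicate 1, day 0 replicate 2 or either array of day 10 left out, the adjusted p was 0.143, 0.153 and 0.0987, and without day 20 replicate 1 the difference was 1.93-fold with an adjusted p of 0.0408. The call on day 15 was lost without any 1 array of day 0 or day 10 (adjusted p = 0.14 to 0.178). With either array of day 20 left out, which takes the spread of that pair out of the fit, Krt7 also passed on day 4 (adjusted p = 0.0341), day 7 (0.0219) and day 10 (0.0149).

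Krt8, the general type II keratin of simple epithelia, had values of 11.61 and 11.27 on day 0, 10.49 on day 4, 10.65 on day 7, 10.25 and 10.31 on day 10, 10.19 on day 15, and 10.53 on day 20 replicate 1 and 10.36 on day 20 replicate 2. Its grafts again lay below both arrays of day 0, and the arrays of day 20 differed little from each other. Krt8 fell on day 10, 2.24-fold (-1.16, SE 0.18, adjusted p = 0.0299). On day 20 it passed the threshold on p (adjusted p = 0.0301) but was 1.99-fold lower (SE 0.18 on the log2 scale), just under the 2-fold change that a call needed. Its other probe sets gave differences of -1.13 and -1.06 on day 10 (adjusted p = 0.0346 and 0.0326) and of -0.98 and -0.90 on day 20. The call on day 10 was lost without day 0 replicate 1 (-0.99, adjusted p = 0.122), day 0 replicate 2 (-1.33, adjusted p = 0.0891), day 10 replicate 1 (-1.13, adjusted p = 0.204) or day 10 replicate 2 (-1.19, adjusted p = 0.222). On day 15 the difference was -1.25 (SE 0.22, adjusted p = 0.054), and it passed with either array of day 20 left out (adjusted p = 0.0464).

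Among the type I keratins, Krt18, the usual partner of Krt8, had values of 10.64 and 10.46 on day 0, 9.53 on day 4, 10.21 on day 7, 9.70 on both arrays of day 10, 9.43 on day 15, and 8.44 on day 20 replicate 1 but 9.78 on day 20 replicate 2. The arrays of day 20 stood farthest apart, and the grafts did not overlap day 0. Differences to day 0 were -0.84 on day 10 (SE 0.42, adjusted p = 0.331) and -1.43 on day 20 (SE 0.42, adjusted p = 0.0974), neither past the test. With day 20 replicate 1 left out the day 20 difference was -0.77 (SE 0.16, adjusted p = 0.0633), and with day 20 replicate 2 left out it was -2.10 and passed (adjusted p = 0.00489). On day 15 the difference was -1.11 (SE 0.52, adjusted p = 0.355), which passed with either array of day 20 left out (adjusted p = 0.0376).

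Krt19, a small type I keratin of ducts and mesothelium, went the other way. It had values of 9.26 and 8.88 on day 0, 10.91 on day 4, 10.81 on day 7, 9.98 and 10.44 on day 10, 9.76 on day 15, and 8.88 on day 20 replicate 1 and 10.30 on day 20 replicate 2. Day 20 replicate 1 was the only graft array that did not lie above both arrays of day 0, and days 4 and 7 were the highest. The differences were 1.83 on day 4 (SE 0.58, adjusted p = 0.348), 1.74 on day 7 (SE 0.58, adjusted p = 0.281), 1.14 on day 10 (SE 0.48, adjusted p = 0.256) and 0.52 on day 20 (SE 0.48, adjusted p = 0.535). The day 20 value was 1.22 without day 20 replicate 1 (SE 0.28, adjusted p = 0.0779) and -0.19 without day 20 replicate 2 (adjusted p = 0.701), so that its sign depended on the array.

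Krt19 and Krt18 can be set against each other by their changes within an array. The change of Krt19 minus that of Krt18, each against its own mean on day 0, was 2.85 on day 4, 2.07 on day 7, 1.75 and 2.22 on day 10, 1.79 on day 15, and 1.91 on day 20 replicate 1 and 1.99 on day 20 replicate 2. Both arrays of day 20, which differed in each of the genes alone, gave nearly the same difference. The change of Krt18 minus that of Krt8 was -0.07 to 0.45 in the other 6 graft arrays and -1.19 on day 20 replicate 1. These differences were noticed in the data and were not tested.

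Krt14 had values of 5.93 and 5.71 on day 0, 5.38 on day 4, 5.19 on day 7, 5.02 and 5.17 on day 10, 5.11 on day 15, and 5.27 on day 20 replicate 1 and 5.26 on day 20 replicate 2. All values lay below the median of an array, and the grafts below both arrays of day 0. The differences, -0.73 on day 10 (SE 0.16, adjusted p = 0.0718) and -0.56 on day 20 (SE 0.16, adjusted p = 0.0918), did not pass the test. The other probe sets of Krt14 gave -0.96 and -0.27 on day 10. The probe sets used for Krt14 and Upk1b carry the suffix x, and that for Upk3b the suffix s, by which the maker of the array marks sets whose probes can bind other transcripts too.

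Msln, the mesothelial glycoprotein, had values of 5.04 and 5.10 on day 0, 7.74 on day 4, 7.75 on day 7, 7.31 and 7.26 on day 10, 7.44 on day 15, and 7.25 on day 20 replicate 1 and 7.69 on day 20 replicate 2. Every graft was far above day 0, with no overlap, and the level was reached by day 4. The day 0 values lay below the median of an array (6.49 to 6.63), near the 25th percentile of all values (4.82). The fold changes are thus set against a weak signal. Msln, like Krt7, Krt18 and Krt19, had a single probe set, so no other could serve as a check. Msln rose 6.39-fold on day 4 (2.68, SE 0.24, adjusted p = 0.0174), 6.40-fold on day 7 (2.68, SE 0.24, adjusted p = 0.0135), 4.66-fold on day 10 (2.22, SE 0.19, adjusted p = 0.00662), 5.18-fold on day 15 (2.37, SE 0.24, adjusted p = 0.0126) and 5.29-fold on day 20 (2.40, SE 0.19, adjusted p = 0.00362). On day 20 the call held with each array left out (highest adjusted p = 0.0381), and day 20 replicate 2 alone gave 6.16-fold (2.62, SE 0.14, adjusted p = 0.00738). On day 10 the size held (2.19 to 2.25), but the call was lost without day 0 replicate 1, day 0 replicate 2, day 10 replicate 1 or day 10 replicate 2 (adjusted p = 0.0556, 0.0538, 0.0735 and 0.086). The calls on days 4, 7 and 15 were lost without the same arrays (highest adjusted p = 0.113, 0.0816 and 0.0808).

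Upk3b, a uroplakin of mesothelium and bladder, had values of 11.19 and 10.87 on day 0, 10.02 on day 4, 10.13 on day 7, 9.35 and 10.27 on day 10, 9.63 on day 15, and 9.77 on day 20 replicate 1 but 10.50 on day 20 replicate 2. The grafts lay below both arrays of day 0, and the arrays of day 10 and those of day 20 stood apart from each other. Differences of -1.22 on day 10 (SE 0.39, adjusted p = 0.156) and -0.89 on day 20 (SE 0.39, adjusted p = 0.213) did not pass the test. On day 20 replicate 2 alone the difference was -0.53 (SE 0.42, adjusted p = 0.463), and the other probe set of Upk3b gave -1.19 on day 10 and -0.96 on day 20.

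Upk1b, a tetraspanin of the uroplakin plaques, had values of 7.02 and 6.78 on day 0, 7.25 on day 4, 7.40 on day 7, 7.15 and 7.28 on day 10, 6.99 on day 15, and 7.85 on day 20 replicate 1 and 7.22 on day 20 replicate 2. Day 15 overlapped day 0 and the highest value was on day 20 replicate 1. The difference was 0.32 on day 10 (SE 0.25, adjusted p = 0.526) and 0.64 on day 20 (SE 0.25, adjusted p = 0.172), or 0.33 with day 20 replicate 2 alone (SE 0.18, adjusted p = 0.301). On day 10, 2 of the other 3 probe sets had the opposite sign, at -0.04 and -0.03.

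**Figure D2:**
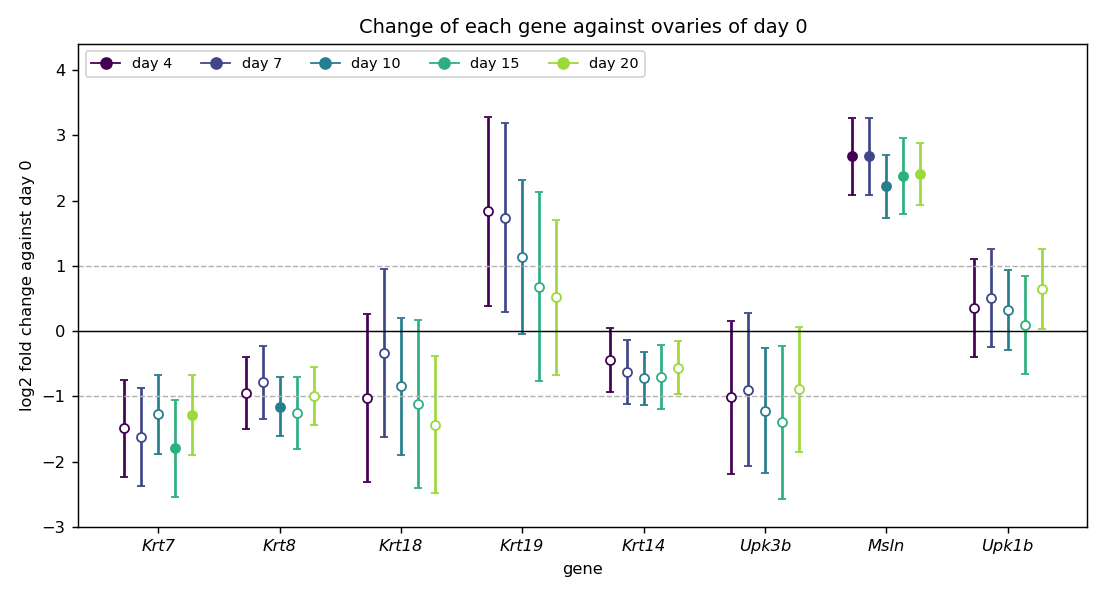
Log2 fold change against day 0 (y axis) of each of the 8 genes (x axis) on each of the 5 graft days, with 95% confidence intervals of the limma fit; filled points passed the test, open points did not, and dashed lines mark 2-fold changes. Msln is filled on all 5 days, Krt7 on days 15 and 20 and Krt8 on day 10.

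Counted together, 1 of the 8 genes, Msln, was called on day 4, where 0.929% of the 45101 probe sets of the array were called in either direction. On day 7 it was again Msln alone, with 1.67% of all probe sets called, and on day 15 Msln and Krt7, with 2.8% called. On day 10, 1 of 8 rose (Msln), where 2.87% of all probe sets rose, and 1 of 8 fell (Krt8), where 1.33% fell. On day 20, 1 of 8 rose (Msln; 4.52% of all probe sets) and 1 of 8 fell (Krt7; 3.1%). The median difference of the 8 genes was -0.79 on day 10 and -0.73 on day 20, and that of all probe sets -0.09 and -0.11. With day 20 replicate 1 left out, 1 of 8 rose on day 20 (Msln; 4.69% of all probe sets) and none fell (2.12%), since Krt7 was then 1.93-fold lower and Krt8 had an adjusted p of 0.0518.

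A further comparison, added after these values were seen, set the mean of the 5 graft days against day 0. Msln rose by 2.47 (SE 0.16, adjusted p = 0.00181), where 3.94% of all probe sets rose. Krt7 differed by -1.49 (SE 0.20, adjusted p = 0.013) and Krt8 by -1.03 (SE 0.15, adjusted p = 0.0159), so that 2 of 8 fell, where 1.83% of all probe sets fell. Krt14 passed on p but was 1.53-fold lower (-0.61, SE 0.13, adjusted p = 0.0476). Krt18 (-0.95, adjusted p = 0.163), Krt19 (1.18, adjusted p = 0.132), Upk3b (-1.08, adjusted p = 0.101) and Upk1b (0.38, adjusted p = 0.313) did not pass.

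No difference among the graft days passed the test. Between days 20 and 10, none of the 8 genes was called by limma, and none had an unadjusted p under 0.05 (5% of all probe sets had one, and 0.00222% were called). The 95% confidence intervals of the difference of day 20 to day 10 were -0.62 to 0.61 for Krt7, -0.29 to 0.62 for Krt8, -0.29 to 0.66 for Msln, and -1.81 to 0.56 for Krt19. Without day 20 replicate 2, Krt18 alone was called lower on day 20 than on day 10 (-1.26, SE 0.16, adjusted p = 0.0384). Over all 10 pairs of graft days, none of the 8 genes was called either (0.00399% of all tests were), and the lowest adjusted p was 0.524, for Krt19. Ordered by the means of the days, Krt7, Krt8, Krt14, Upk3b and Msln had 1 gap between neighbouring days that was larger than 2 SD of a single array, that between day 0 and the nearest graft day. Krt18, Krt19 and Upk1b had no such gap.

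Across the 9 arrays, the lower genes varied together and against Msln, Krt18 least closely. Pearson's r was 0.86 between Krt7 and Krt8, 0.65 between Krt8 and Krt18, 0.58 between Krt18 and Krt14 and 0.88 between Krt7 and Upk3b. With Msln, r was -0.91 for Krt7, -0.90 for Krt8, -0.88 for Krt14, -0.74 for Upk3b and -0.60 for Krt18. Without day 20 replicate 1, r between Krt8 and Krt18 was 0.93 and between Krt19 and Upk1b it was 0.94, against 0.10 over all 9 arrays. These points share the step between day 0 and the grafts, and the values are descriptions.

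Among 6993 other genes that spanned at least 1 on the log2 scale, the closest courses over the 9 arrays were these, with r over the 8 arrays without day 20 replicate 1 in brackets. Msln was followed most closely by Ahnak2 (0.992 [0.997]), Hfe, an iron-sensing protein (0.991 [0.994]), and Esr1, the estrogen receptor alpha (0.988 [0.990]). For Krt7 these were Zscan12 (0.968 [0.983]), Id3, an inhibitor of helix-loop-helix factors (0.963 [0.962]), and Cntnap2 (0.958 [0.959]). For Krt8 they were Sv2a (0.986 [0.986]), Mpped2 (0.986 [0.986]) and Mtm1 (0.979 [0.982]). Courses with a single step between day 0 and the grafts are alike through that step alone.

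For Krt18 the closest were 3830408C21Rik (0.986 [0.967]), Zgrf1 (0.981 [0.955]) and 2410002F23Rik (0.968 [0.921]). For Krt19 they were Pcp4l1 (0.991 [0.991]), Cst12 (0.945 [0.947]) and Sorbs2 (0.943 [0.936]). For Krt14 (of 6994 genes) they were 1700007L15Rik (0.986 [0.987]), Gm26611 (0.973 [0.973]) and Htra2 (0.973 [0.981]). For Upk3b they were Krtcap3 (0.940 [0.943]), Gadd45gip1 (0.926 [0.923]) and Ddx56 (0.926 [0.921]), and for Upk1b Maf (0.966 [0.930]), Gcsam (0.964 [0.914]) and Cfb, a complement factor (0.950 [0.900]).

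Other genes of surface epithelium and mesothelium did not move as one group. Of 18 measured genes of this list, 3 rose and 3 fell on day 10, where 2.87% of all probe sets rose and 1.33% fell. On day 20, 1 rose and 5 fell, where 4.52% rose and 3.1% fell. The medians were -0.50 and -0.34, and those of all probe sets -0.09 and -0.11. Without day 20 replicate 1, 1 rose and 4 fell on day 20 (4.69% and 2.12% of all probe sets). The largest changes were those of Lhx9, Lrrn4, Podxl and Gpm6a.

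Lhx9, a transcription factor needed to form the gonad, had values of 12.69 and 12.62 on day 0, 9.74 on day 4, 9.52 on day 7, 8.96 and 9.59 on day 10, 9.08 on day 15, and 8.12 on day 20 replicate 1 and 9.54 on day 20 replicate 2. It fell on day 10 (-3.39, SE 0.48, adjusted p = 0.023) and day 20 (-3.83, SE 0.48, adjusted p = 0.0111), with no overlap. Without 1 array of day 0 the day 20 call was lost (highest adjusted p = 0.0766), and that of day 10 was lost without any 1 array of day 0 or day 10 (highest 0.163).

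Lrrn4, a mesothelial membrane protein, measured 9.04 and 8.39 on day 0, 5.81 on day 4, 5.60 on day 7, 4.89 and 5.69 on day 10, 5.83 on day 15, and 6.76 on day 20 replicate 1 and 7.02 on day 20 replicate 2. It fell on day 10 (-3.42, SE 0.34, adjusted p = 0.00906) and on day 20 (-1.83, SE 0.34, adjusted p = 0.0326), and day 20 differed from day 10 by 1.60 (SE 0.34, adjusted p = 0.673), which did not pass. The calls were lost without day 0 replicate 1 or either array of day 10 (day 10; highest adjusted p = 0.0646) and without any 1 array but day 20 replicate 2 (day 20; highest 0.138).

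Podxl, a sialomucin of the free surface of podocytes and mesothelium, lay between 9.44 and 11.05 in the grafts and at 12.46 and 12.86 on day 0. Gpm6a, a membrane glycoprotein of neurons and mesothelium, lay between 8.08 and 9.43 in the grafts and at 6.80 and 6.88 on day 0. Neither overlapped day 0. Podxl fell by 2.68 on day 10 (SE 0.20, adjusted p = 0.00511) and by 3.08 on day 20 (SE 0.20, adjusted p = 0.00245), and Gpm6a rose by 1.39 on day 10 (SE 0.15, adjusted p = 0.0116) and by 2.57 on day 20 (SE 0.15, adjusted p = 0.00224). Both calls of day 20 held with each array left out (highest adjusted p = 0.0261 for Podxl and 0.0269 for Gpm6a). On day 10 the highest were 0.0689 for Podxl, lost without either array of day 10, and 0.138 for Gpm6a, lost without any 1 array of day 0 or day 10. The remaining calls of the list, named here after their values were seen, were Aldh1a1 and Ptgis, higher on day 10, and Rspo1 and Emx2, lower on day 20.

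**Figure D3:**
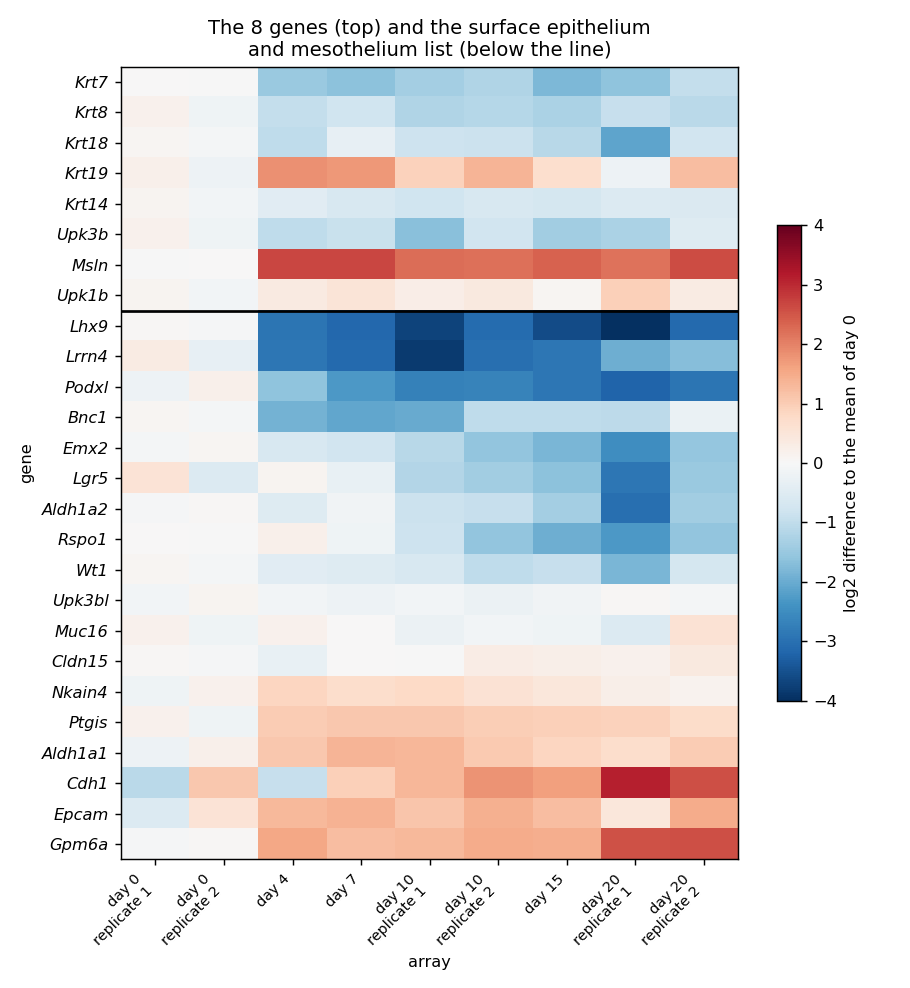
Log2 difference to the mean of day 0 (colour, red higher and blue lower) of the 8 genes (above the line) and of 18 genes of surface epithelium and mesothelium (below it) on each of the 9 arrays, in order of days. Msln and Gpm6a are higher and Krt7, Krt8, Lhx9 and Podxl lower on all 7 graft arrays.

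The genes Cdh1, Esrp1 and Epcam differed between the arrays of day 0, and which cells expressed them was not tested. Cdh1, the cadherin of epithelia, had 5.68 on day 0 replicate 1 and 7.82 on day 0 replicate 2, Esrp1, an epithelial splicing factor, 5.50 and 7.36, and Epcam 8.56 and 9.67. The 8 genes stood closer on these arrays, with Krt19 the farthest apart of them (9.26 and 8.88). Cdh1, Esrp1 and Epcam were named after their values were seen, and their part in the values of the 8 genes was not tested.

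Of 18 genes that anchor keratin filaments or control epithelial genes, 2 rose and none fell on days 10 and 20, where 2.87% and 4.52% of all probe sets rose. Ehf, an Ets factor of epithelia, rose by 2.91 on day 10 (SE 0.39, adjusted p = 0.019) and by 3.39 on day 20 (SE 0.39, adjusted p = 0.00876), and Trp63, the p63 factor of basal epithelial cells, by 2.60 (SE 0.41, adjusted p = 0.0297) and 2.45 (SE 0.41, adjusted p = 0.0234). Both calls of day 10 were lost without any 1 array of day 0 or day 10 (highest adjusted p = 0.158 and 0.192) and both calls of day 20 without any 1 array of day 0 (0.0647 and 0.127). The desmosomal genes of the list, among them Dsp and Jup, and the crosslinkers Plec and Dst were not called. Klf5, a factor of the Klf family, was at 7.26 and 7.74 on day 0 and between 7.45 and 8.51 in the grafts.

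Of 13 other keratins, none was called on day 10 and 1, Krt1, fell on day 20, where 3.1% of all probe sets fell (-1.05, SE 0.18, adjusted p = 0.0265), a call lost without any 1 array but day 20 replicate 1 (highest adjusted p = 0.144). Of 8 urothelium genes, Trp63 alone was called, and the plaque proteins Upk1a (5.08 to 5.91) and Upk3a (5.26 to 6.86) stayed near or below the median value of an array on all 9 arrays. Of 9 measured genes of stratified epithelium, Perp, a membrane protein of desmosomes, rose by 2.07 on day 10 (SE 0.24, adjusted p = 0.0131) and by 3.47 on day 20 (SE 0.24, adjusted p = 0.00262), and Lgals7, a galectin, fell by 3.09 on day 20 (SE 0.44, adjusted p = 0.016). Trp63 and Krt1 were the other calls of that list. The call of Perp on day 10 was lost without any 1 array of day 0 or day 10 (highest 0.117), as was that of Lgals7 on day 20 (highest 0.0949), while that of Perp on day 20 held with each array left out (highest 0.0287).

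Markers of other cells moved with the grafts. All 6 genes of fibroblasts and stroma rose on days 10 and 20, where 2.87% and 4.52% of all probe sets rose, with medians of 2.27 and 2.57 and summed intensities of 63516 to 76758 in the grafts and 16460 and 17744 on day 0. Of 8 macrophage genes, 5 rose on day 10 and 7 on day 20, with sums of 9003 to 31889 in the grafts and 1481 and 2361 on day 0. Of 6 gonadal somatic genes, Nr5a1 fell on day 10 and Nr5a1 and Gata4 fell on day 20. Without 1 array each, 2 to 6 of the stromal genes rose on day 10 and 4 to 6 on day 20, and 1 to 5 of the macrophage genes on day 10 and 3 to 7 on day 20. The fewest were called without either array of day 10 (for day 10) and without day 0 replicate 1 (for day 20). The part of these cells in the values of the 8 genes was not tested.

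Of 11 kidney proximal tubule genes, none was called on day 10 and Miox rose on day 20. Among all probe sets, 2.87% rose and 1.33% fell on day 10, and 4.52% rose and 3.1% fell on day 20. Of the 11 genes of the loop, distal tubule and collecting duct, Hsd11b2 rose on day 10 and Hsd11b2 and Fxyd4 on day 20. The median difference of the proximal list was 2.97 on day 20 and -0.13 on day 20 replicate 2 alone. Of 5 genes of rete ovarii and mesonephric duct, Gata3 fell on day 10 and Emx2 on day 20. Of 6 genes of oviduct and ciliated epithelium, whose median on day 20 was 0.37 (0.83 on replicate 2 alone), Tppp3 rose on both days. These calls, and those of Nr5a1 and Gata4, were lost without day 0 replicate 1 among others, with highest adjusted p-values between 0.0604 (Hsd11b2 on day 20) and 0.32 (Nr5a1 on day 10). The calls of Miox and Fxyd4 were also lost without day 20 replicate 1. Of the 8 genes of surface epithelium and simple epithelia, Krt8, Krt14 and Upk1b were higher and the other 5 lower on day 20 replicate 1 than on day 20 replicate 2.

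**Figure D4:**
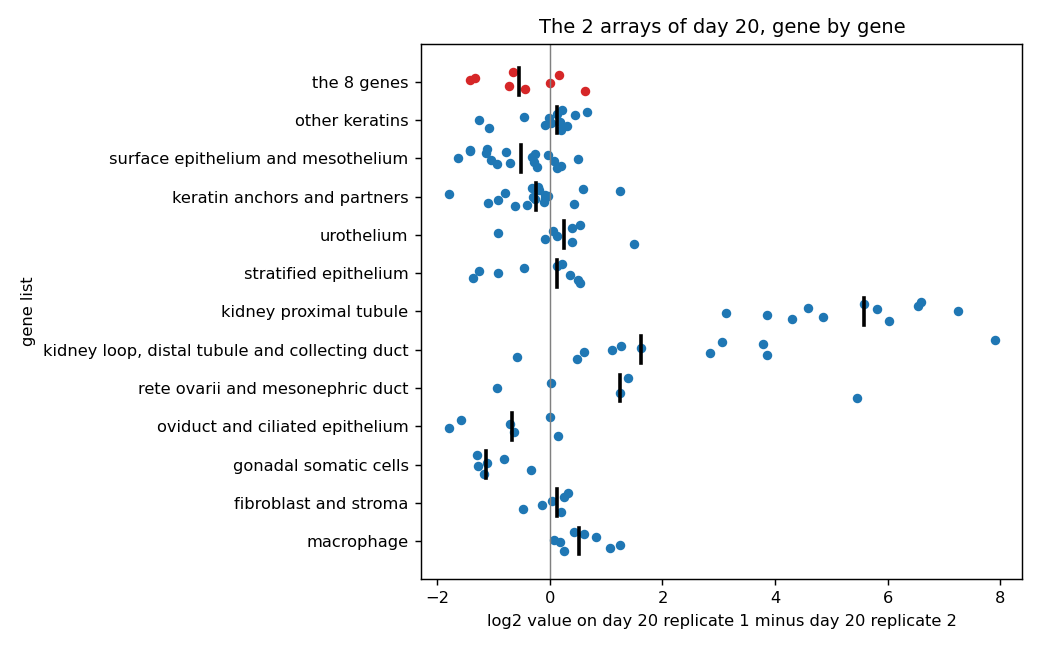
Log2 value on day 20 replicate 1 minus day 20 replicate 2 (x axis) of each gene (points) in each list (y axis), with the median of the list as a black bar and the 8 genes in red. All 11 proximal tubule genes lie right of 0, while 3 of the 8 genes do.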

How the data were processed

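RNA of 9 pools was labelled by either of 2 kits, and the sources used here do not say which kit an array had. The authors deposited log2 intensities, background-corrected and quantile-normalized by the robust multiarray algorithm. Neither its version nor a genome build is given in these sources. All 45101 probe sets were kept. Platform annotation gave 34958 of them a single gene symbol and 932 several, and 9211 had no entry.

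A mean per day over all 9 arrays was fitted (limma 3.58.1, lmFit and eBayes, in R 4.3.3), with 3 residual degrees of freedom and 2.69 prior ones. A call needed an adjusted p under 0.05 (Benjamini-Hochberg over all probe sets) and more than a 2-fold change. The p-values rest on the spread between the pools of those days that had 2 arrays. The labels call these arrays biological replicates, and the technical part of their spread was not tested. Days with a single array have no spread of their own, so their p-values borrow that of the other days. The genes and lists were chosen with earlier results of these data known. Named by rule were the 8 genes, up to 4 called genes with the largest change per list, and the 3 most alike genes of each. Genes with no probe set of their own in the annotation (among them Dsg3, Ggt1, Atp6v1g3, Pax2 and Sntn) were not analysed here. The fit was repeated with an intensity trend, with array weights, after other scalings, filters or a floor, on fewer arrays, with a replicate block, at a fold threshold of 1.5, and on other probe sets. Figures were drawn with Python 3.11.15 and matplotlib 3.10.9.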

Additional observations from a re-analysis of the deposited data

How the results depend on the processing

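Of 286 values of single genes on days 10 and 20 under the alternatives, 255 kept their direction and their side of the threshold, 11 passed it newly, 17 lost it and 3 changed sign, namely Krt19 on day 20 without day 20 replicate 2 (-0.19, in a range of -0.19 to 1.22 over the arrays left out) and Upk1b on day 10 with its other probe sets (-0.037 and -0.027). None of the sign changes concerned a call, and their cause was not tested. Most of the 286 values belonged to genes and days with no call to lose. All losses fell on calls of the main fit. Krt7 on day 20 lost its call in 7 of 17 values, Krt8 on day 10 in 6 of 19 and Msln on day 10 in 4 of 17. Msln on day 20 kept its call in all 17. The number of genes called out of 8 changed as follows. It was 1 on days 4 and 7, 2 on days 10, 15 and 20 and 0 between days 20 and 10 as reported. With array quality weights it was 2 on days 4 and 7 and 3 on days 10 and 15. Among only probe sets above the median, a filter that removed Krt14, or with probe sets averaged per gene, it was 2 on day 7 and 3 on days 10 and 15. Centring each array on its median gave 3 on days 10, 15 and 20, quantile normalization 3 on day 10, an intensity trend 3 on day 15, and a fold threshold of 1.5 gave 3 on day 20. With a floor at the 25th percentile (4.82) it was 0 on days 4, 7 and 15 and 1 on days 10 and 20. With only the arrays of the days compared it was 3 on day 10 and 1 on day 20. Leaving out 1 array each gave 0 to 2 on days 4 and 7, 0 to 3 on day 10, 0 to 4 on day 15, 1 to 3 on day 20, and 0 to 1 between days 20 and 10. The highest counts came without an array of day 20. Fewer arrays also leave fewer residual degrees of freedom. The share of all probe sets called is not given for most of these alternatives, so the counts cannot be set against it. The difference of replicate 1 to replicate 2 over all probe sets was correlated between days. The r was -0.16 between days 0 and 10, 0.15 between days 0 and 20, and -0.13 between days 10 and 20. With only 1 such difference a day, these values cannot show whether the numbers pair the arrays. With a replicate block, 1 gene was called on day 10 and 2 on day 20, and with the day 10 numbers crossed, a choice made after seeing the data, 2 on each of these days. No detection calls came with the values, and precision is set by how few arrays there are.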
